A study of Drosophila melanogaster with 18 samples.

Results

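The dpr, DIP, beat and side genes of Drosophila melanogaster encode 4 families of cell surface proteins with immunoglobulin domains. Members were all genes whose FlyBase identifier carries a symbol of dpr with a number, or a symbol that starts with DIP-, beat- or side. The rule used names only and no measured value. It found 54 genes among the 17559 in each count table, 21 of them dpr, 11 DIP, 14 beat and 8 side.

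Dpr proteins, named for the defective proboscis extension response of the dpr1 mutant, pair with the Dpr-interacting proteins (DIPs), and beaten path (Beat) proteins pair with Sidestep (Side) proteins. A neuron that carries a member of one family recognises a neuron or muscle that carries its partner, and such pairs guide axons and match synaptic partners in the fly nervous system. The families are best known from neurons and from the muscles that motor axons reach. The wing imaginal disc is the larval epithelium that forms the adult wing and notum, and it also holds myoblasts, tracheal cells and sensory organ precursors.

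RNA was polyadenylated RNA of wing discs from wandering larvae, with 40 discs pooled in each library. Each of 6 groups had 3 libraries, for 18 in all. Every animal, controls included, was heat-shocked at 37 °C for 30 min to make overlapping clones of cells, raised at 18 °C with the transgene silent, and shifted to 28 °C for the last 48 h or 78 h. Tip60dn discs expressed a dominant negative Tip60, Tip60wt discs expressed wild type Tip60, and the remaining arm is labelled control, which the labels describe no further. Tip60 acetylates histones as the catalytic subunit of NuA4, a chromatin complex. The labels do not name the driver of the transgenes, the strain, the sex or the site where the transgenes sit, and a library holds whole discs, so cells of the clones and their neighbours were measured together. The study compared the dominant negative with the wild type protein at each duration.

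Libraries held 65277725 to 105716567 counts, and the 54 members took between 0.0187% and 0.0378% of them. Tip60 itself, which both transgenes carry, had means of 33.7 and 38.9 CPM (counts per 1000000 counts of the scaled library) in control discs at 48 h and 78 h, 1627 and 1577 CPM with Tip60wt, and 3043 and 2080 CPM with Tip60dn. Its counts therefore separate both transgenes from the control and do not show which form was expressed. All 20 wing disc epithelium genes on a marker list, nub, vg and Dll among them, had counts in every group; against the control 5 of them were higher and 0 lower with Tip60dn at 48 h, and 9 and 0 at 78 h. CPM values are scaled over all 18 libraries, and mean values carry the standard deviation (SD) of 3 libraries. A change is called at an adjusted p under 0.05 in edgeR's quasi-likelihood test, with Benjamini-Hochberg adjustment over all genes tested, and a log2 fold change carries its standard error (SE). Nothing in the labels says that replicates of a group were bred or dissected separately, so p-values measure the spread between these samples only.

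Most of the families were at or near zero in control discs. At 48 h, 10 of the 54 members had a mean of at least 1 CPM, 9 lay between 0.1 and 1 CPM, 27 lay below 0.1 CPM and 8 had no count in any control library. At 78 h the same classes held 10, 9, 23 and 12 members. In Tip60dn discs 12 members reached 1 CPM at each duration, and the median over all 54 members was 0.126 CPM at 48 h and 0.154 CPM at 78 h, against 0.060 and 0.0558 CPM in control discs. The 2 members that crossed 1 CPM with Tip60dn, at both durations, were dpr1 and dpr6.

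Families differed in what the disc transcribed. The side family took the most reads, with 169.9 CPM over its 8 members in 48 h control discs, against 26.4 for beat, 15.6 for dpr and 13.1 for DIP, and side-V alone supplied 148 CPM of it. Per kb of exon, which allows genes to be compared, side-V read 25.7 ± 2.94 CPM per kb (SD, n = 3) in those discs, ahead of beat-IIIc at 4.41 ± 0.0625, beat-IIb at 3.40 ± 0.492 and dpr16 at 2.11 ± 0.184 CPM per kb. By this measure side-V exceeded 78.1% of the 13685 protein-coding genes in the tables, and dpr6 exceeded 22.2%. DIP-theta and beat-IIIa had no count in any of the 18 libraries. All exon bases of beat-IIIa and 12.6% of those of DIP-theta are shared with another annotated gene on the same strand, and how reads on shared bases were counted is not given in the sources used here.

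**Figure D1:**
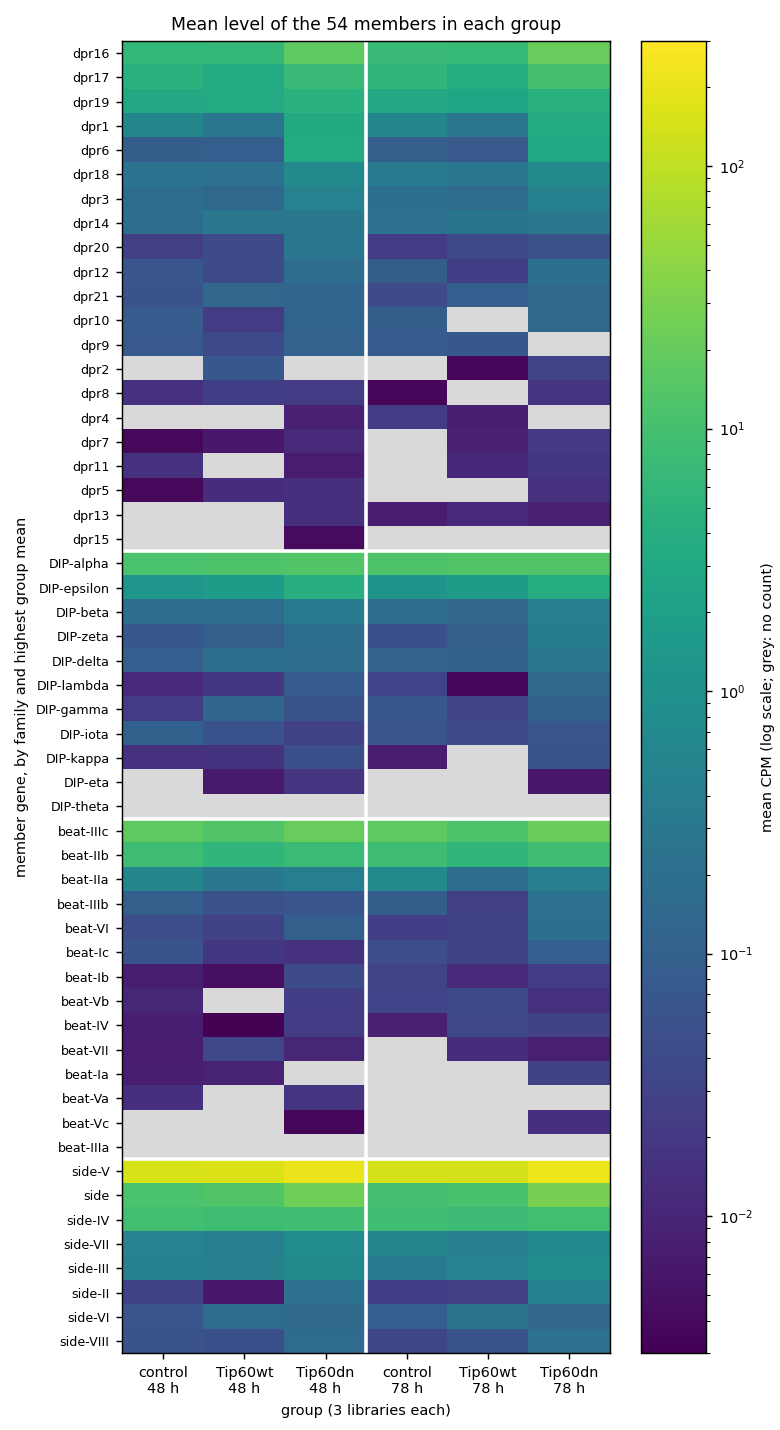
Mean CPM of all 54 members (rows, grouped by family) in the 6 groups (columns), on a log colour scale, with grey for groups without a count. The top rows of each family carry counts in every group, and the rows of dpr6 and dpr1 are brighter in the Tip60dn columns than in the others.

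The members are long genes. Their median span was 36.2 kb, from 3.7 kb for dpr19 to 379.1 kb for DIP-lambda, while the median over the 13685 protein-coding genes was 2.15 kb, and all 54 members lay above that median. In the Ensembl annotation of the BDGP6 assembly, 21 members lie on chromosome arm 3R, 16 on 2L, 7 on 2R, 5 on X, 4 on 3L and 1 on chromosome 4. Several are neighbours, such as dpr6 and dpr10, which lie 8.1 kb apart, and beat-IIIa and beat-IIIc, 14.5 kb apart. Only 4 members share 10% or more of their exon bases with another gene: beat-IIIa, DIP-theta, dpr4 (15.7%, with an antisense RNA) and side-IV (67.5%, with antisense RNAs). The strand setting of the counting is not given in the sources used here, so reads of side-IV and dpr4 cannot be told apart from those of their antisense partners.

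With Tip60dn, members of all 4 families rose and none was called lower. Against the control at 48 h, 11 of the 54 members were higher, among them dpr6, dpr1, dpr16, DIP-epsilon, side and side-V. At 78 h 16 were higher, the same 11 and DIP-beta, DIP-zeta, DIP-lambda, beat-VI and side-II. Against Tip60wt, 11 were higher at 48 h and 19 at 78 h. In the 4 comparisons 11 members were higher every time: DIP-epsilon, beat-IIIc, dpr1, dpr3, dpr6, dpr16, dpr17, dpr18, dpr19, side and side-V. Comparisons at the same duration share their Tip60dn libraries and are not independent. Another 8 members were higher in some comparisons, which makes 19, and 35 members were never called higher. Of these 8, beat-IIa, beat-IIb and dpr10 were called only against Tip60wt at 78 h, where Tip60wt itself was called lower than the control. beat-IIa averaged less with Tip60dn than in the control there (0.420 and 0.663 CPM, not called). At 48 h against the control the count of members called higher fell to 7 without control library 3 or without Tip60dn library 1 or 2.

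These counts stand against a transcriptome in which many genes moved. Against the control at 48 h 26 members passed the low-count filter, and 19.6% of all 10693 genes tested were called higher. Against the control at 78 h 30 members passed, and 22.4% of 10598 genes were called higher. Against Tip60wt the shares of all genes were 18.0% at 48 h and 17.6% at 78 h. The count of members called lower was 0 in each of these comparisons by edgeR, and it was also 0 at an unadjusted p under 0.05 and by DESeq2, while 19.4% and 21.7% (control, 48 h and 78 h) and 17.7% and 19.2% (Tip60wt) of all genes were called lower. The median log2 fold change of the members tested was 0.92 and 1.21 against the control and 0.76 and 1.45 against Tip60wt, beside 0.02, 0.03, 0.01 and 0.01 over all genes tested. Some members passed the filter only through the Tip60dn libraries, 5 at 48 h and 11 at 78 h. They enter both the medians and the counts of 0, and could hardly be called lower. Members near 0 in the control also had little room to fall. Among the members that pass without the Tip60dn libraries, 21 at 48 h and 19 at 78 h, 0 were called lower in each comparison. The member medians and the absence of falls therefore do not describe all 54 members.

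Against Tip60wt some of the calls rested on single libraries. At 48 h dpr18 was lost without Tip60wt library 2 or 3 or Tip60dn library 1 or 2 (adjusted p 0.0555 to 0.078), dpr19 without Tip60wt library 1 or 2 or any Tip60dn library (0.0738 to 0.113), and dpr3 without Tip60wt library 3 or Tip60dn library 3 (0.0541 and 0.0704). At 78 h beat-VI was lost without any of the 6 libraries (0.0602 to 0.127) or with the replicate numbers as pairs (0.0693), dpr3 without Tip60wt library 2 or Tip60dn library 3 (0.0558 and 0.0545), DIP-zeta and dpr18 without Tip60wt library 2 (0.0552 and 0.0527), and DIP-beta without Tip60dn library 3 (0.0531).

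The filter itself favoured genes that are high in Tip60dn discs. Of the members tested, 5 at 48 h and 11 at 78 h passed it only through the Tip60dn libraries, dpr6 among them, so their entry into the test already depended on the group where they were high. Without the filter dpr6 stayed called in all 4 comparisons, and calls of other members were lost. Against the control these included beat-IIIc and dpr3 at 48 h (edgeR adjusted p 0.0576 and 0.0567). At 78 h they included DIP-beta, DIP-lambda, beat-VI, dpr18 and dpr3 (0.0551 to 0.0776). Against Tip60wt, dpr19 was lost at 48 h (0.0604), and beat-IIa and beat-VI at 78 h (0.0667 and 0.0984). Among members that pass on the control and Tip60wt libraries alone, 10 of 21 were higher at 48 h in each comparison, beside 19.4% (control) and 17.7% (Tip60wt) of all genes that pass in this way. At 78 h, 11 of 19 were higher than in the control and 13 of 19 than with Tip60wt, beside 21.9% and 17.5% of genes. Members were chosen with earlier results of these data known, so these shares describe the families and carry no test.

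**Figure D2:**
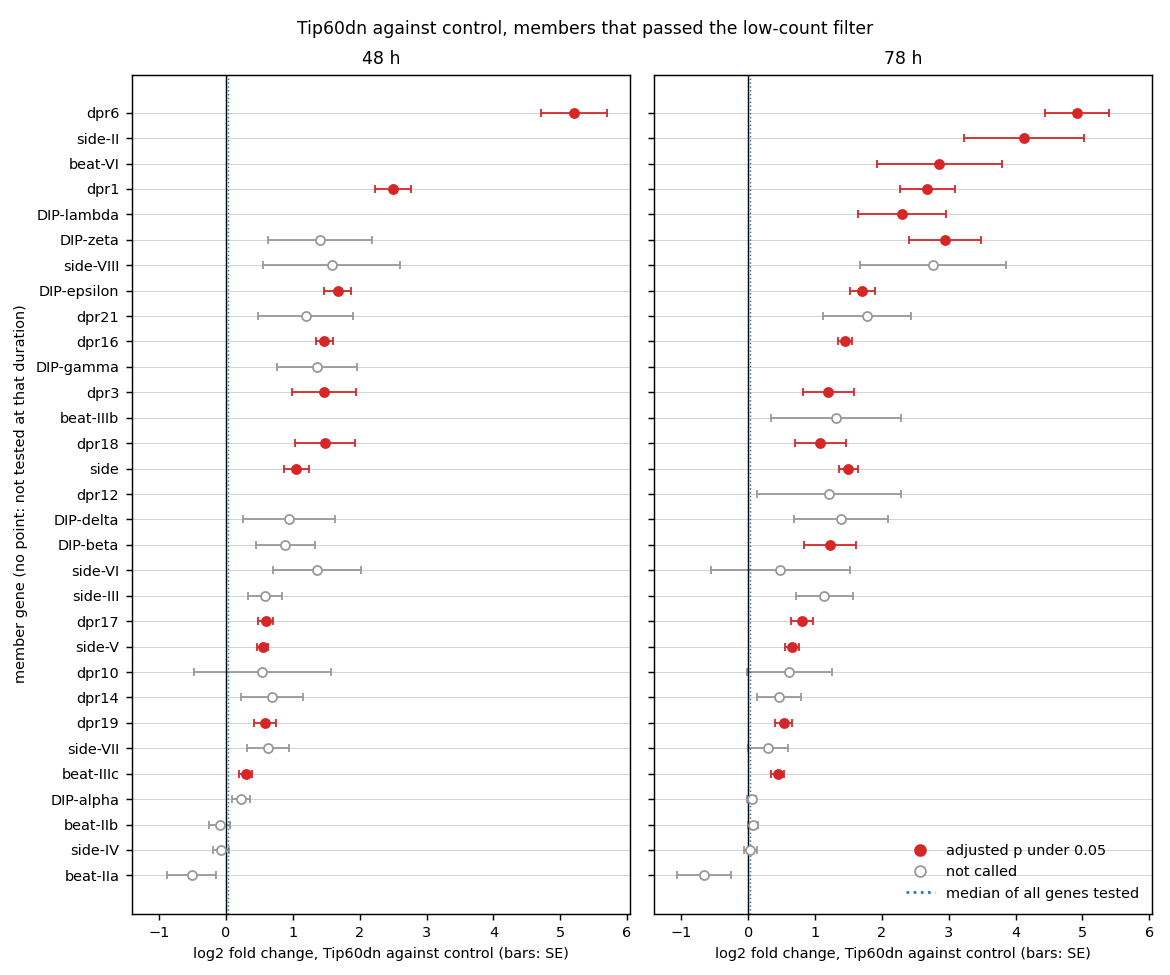
Log2 fold change of Tip60dn against control with its SE, at 48 h (left) and 78 h (right), for the members that passed the low-count filter at either duration. Filled points are called at an adjusted p under 0.05. dpr6 lies farthest right at both durations, at 5.21 and 4.92, and no called member lies left of 0.

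Among the Dpr ligands, dpr6 showed the widest change and dpr16 the highest level. dpr6 encodes a ligand of the receptor DIP-alpha and lies at chr3L:9974651-10139360 on the plus strand (FBgn0040823). At 48 h dpr6 read 0.112, 0.0527 and 0.106 CPM in the control libraries, 0.167, 0.0517 and 0.0568 CPM with Tip60wt and 3.72, 4.15 and 2.23 CPM with Tip60dn. At 78 h its values were 0.112, 0.125 and 0.0529 CPM in the control, 0.128, 0.0748 and 0.0258 CPM with Tip60wt and 3.64, 2.91 and 2.42 CPM with Tip60dn. Every Tip60dn library stood far above every control and Tip60wt library, and the latter overlapped. The log2 fold change against the control was 5.21 ± 0.50 (SE, edgeR adjusted p = 9.87e-05) at 48 h and 4.92 ± 0.48 (adjusted p = 9.38e-05) at 78 h. Summed over a group, dpr6 had 24 counts in 48 h control discs and 801 with Tip60dn, a ratio of 38.8 after scaling with a 95% interval of 25.9 to 60.9 that covers counting error only. Genes annotated inside the dpr6 span, which share none of its exon bases, did not pass the filter.

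dpr1, the founding member, needed for the aversion to salt, lies at chr2R:20698483-20750442 on the plus strand (FBgn0040726). Its libraries read 0.424, 0.758 and 0.565 CPM in the control, 0.274, 0.269 and 0.270 CPM with Tip60wt and 3.97, 3.52 and 2.40 CPM with Tip60dn at 48 h. At 78 h they read 0.762, 0.428 and 0.489 CPM in the control, 0.431, 0.256 and 0.129 CPM with Tip60wt and 3.17, 2.89 and 4.67 CPM with Tip60dn. Tip60dn libraries were above all others, and Tip60wt libraries at 48 h were below all control libraries. Against the control dpr1 rose by 2.5 ± 0.27 on the log2 scale (SE, edgeR adjusted p = 0.000188) at 48 h and by 2.68 ± 0.41 (adjusted p = 0.000869) at 78 h. Against Tip60wt the rise was 3.60 ± 0.29 (adjusted p = 4.7e-05) and 3.70 ± 0.43 (adjusted p = 0.000296).

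dpr16 (FBgn0037295, chr3R:5150908-5170121, plus strand) was already transcribed in control discs. At 48 h its libraries held 5.60, 6.67 and 6.25 CPM in the control, 7.47, 6.81 and 5.25 CPM with Tip60wt and 17.6, 17.3 and 16.4 CPM with Tip60dn. The 78 h libraries held 7.70, 7.56 and 7.15 CPM in the control, 6.26, 7.18 and 7.11 CPM with Tip60wt and 17.0, 21.1 and 22.8 CPM with Tip60dn. No Tip60dn library overlapped another group, and control and Tip60wt libraries lay together. The change against the control was 1.47 ± 0.13 (SE, edgeR adjusted p = 5.55e-05) at 48 h and 1.45 ± 0.11 (adjusted p = 2.51e-05) at 78 h, a 2.78-fold and 2.73-fold rise. cno, which lies on the opposite strand and shares 4.04% of the exon bases of dpr16, was not called at 48 h (log2 fold change -0.08, adjusted p = 0.299). CG12590, inside the span of dpr16 on the same strand with no shared exon base, rose by 1.80 (adjusted p = 0.0076) at 48 h.

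dpr17 (FBgn0051361, chr3R:12094876-12111420, plus strand) and dpr19 (FBgn0032233, chr2L:10376168-10379905, plus strand) rose by less. For dpr17 the 48 h libraries read 5.06, 4.25 and 4.76 CPM in the control, 3.79, 3.04 and 3.36 CPM with Tip60wt and 6.75, 7.23 and 7.20 CPM with Tip60dn. At 78 h dpr17 read 6.33, 6.01 and 5.43 CPM in the control, 4.95, 3.13 and 3.33 CPM with Tip60wt and 9.83, 9.79 and 11.3 CPM with Tip60dn. At both durations the Tip60dn libraries were highest and the Tip60wt libraries lowest, with no overlap between any pair of groups. dpr17 rose by 0.59 ± 0.11 (SE, edgeR adjusted p = 0.0032) against the control at 48 h and by 0.81 ± 0.16 (adjusted p = 0.00378) at 78 h, and by 1.06 ± 0.12 and 1.44 ± 0.17 against Tip60wt. For dpr19 the 48 h libraries read 3.47, 3.45 and 2.56 CPM in the control, 3.29, 2.78 and 3.96 CPM with Tip60wt and 4.61, 4.96 and 4.56 CPM with Tip60dn. The 78 h values of dpr19 were 3.25, 3.05 and 3.16 CPM in the control, 2.34, 2.65 and 2.76 CPM with Tip60wt and 4.34, 5.14 and 4.17 CPM with Tip60dn. Tip60dn libraries were again highest, and dpr19 rose by 0.58 ± 0.17 (adjusted p = 0.021) and 0.54 ± 0.13 (adjusted p = 0.00793) against the control. The 48 h call of dpr19 was lost without control library 3 or Tip60dn library 1 or 2, at adjusted p values of 0.0505 to 0.0655.

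dpr18 (FBgn0030723, chrX:16063738-16070304, plus strand) and dpr3 moved at low counts, dpr3 being named after its values were seen. dpr18 read 0.290, 0.169 and 0.259 CPM in the control, 0.372, 0.114 and 0.199 CPM with Tip60wt and 0.739, 0.757 and 0.505 CPM with Tip60dn at 48 h. At 78 h dpr18 read 0.247, 0.324 and 0.502 CPM in the control, 0.385, 0.171 and 0.258 CPM with Tip60wt and 0.622, 0.823 and 0.808 CPM with Tip60dn. Its Tip60dn libraries lay above the others, by a narrow gap at 78 h. dpr18 rose by 1.48 ± 0.45 (SE, edgeR adjusted p = 0.0268) and 1.08 ± 0.38 (adjusted p = 0.043) against the control. dpr3, with group sums of 47 and 108 counts at 48 h and 53 and 122 at 78 h, rose by 1.46 ± 0.48 (adjusted p = 0.0374) and 1.20 ± 0.38 (adjusted p = 0.0283). Both calls depended on single libraries. Leaving out control library 1, 2 or 3 or Tip60dn library 1 or 2 took dpr18 at 48 h to adjusted p values of 0.052 to 0.0939, and at 78 h leaving out control library 1 or 2 or any Tip60dn library took it to 0.0528 to 0.14. For dpr3, leaving out any control or Tip60dn library ended the call, at 0.0513 to 0.127 (48 h) and 0.0531 to 0.106 (78 h).

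**Figure D3:**
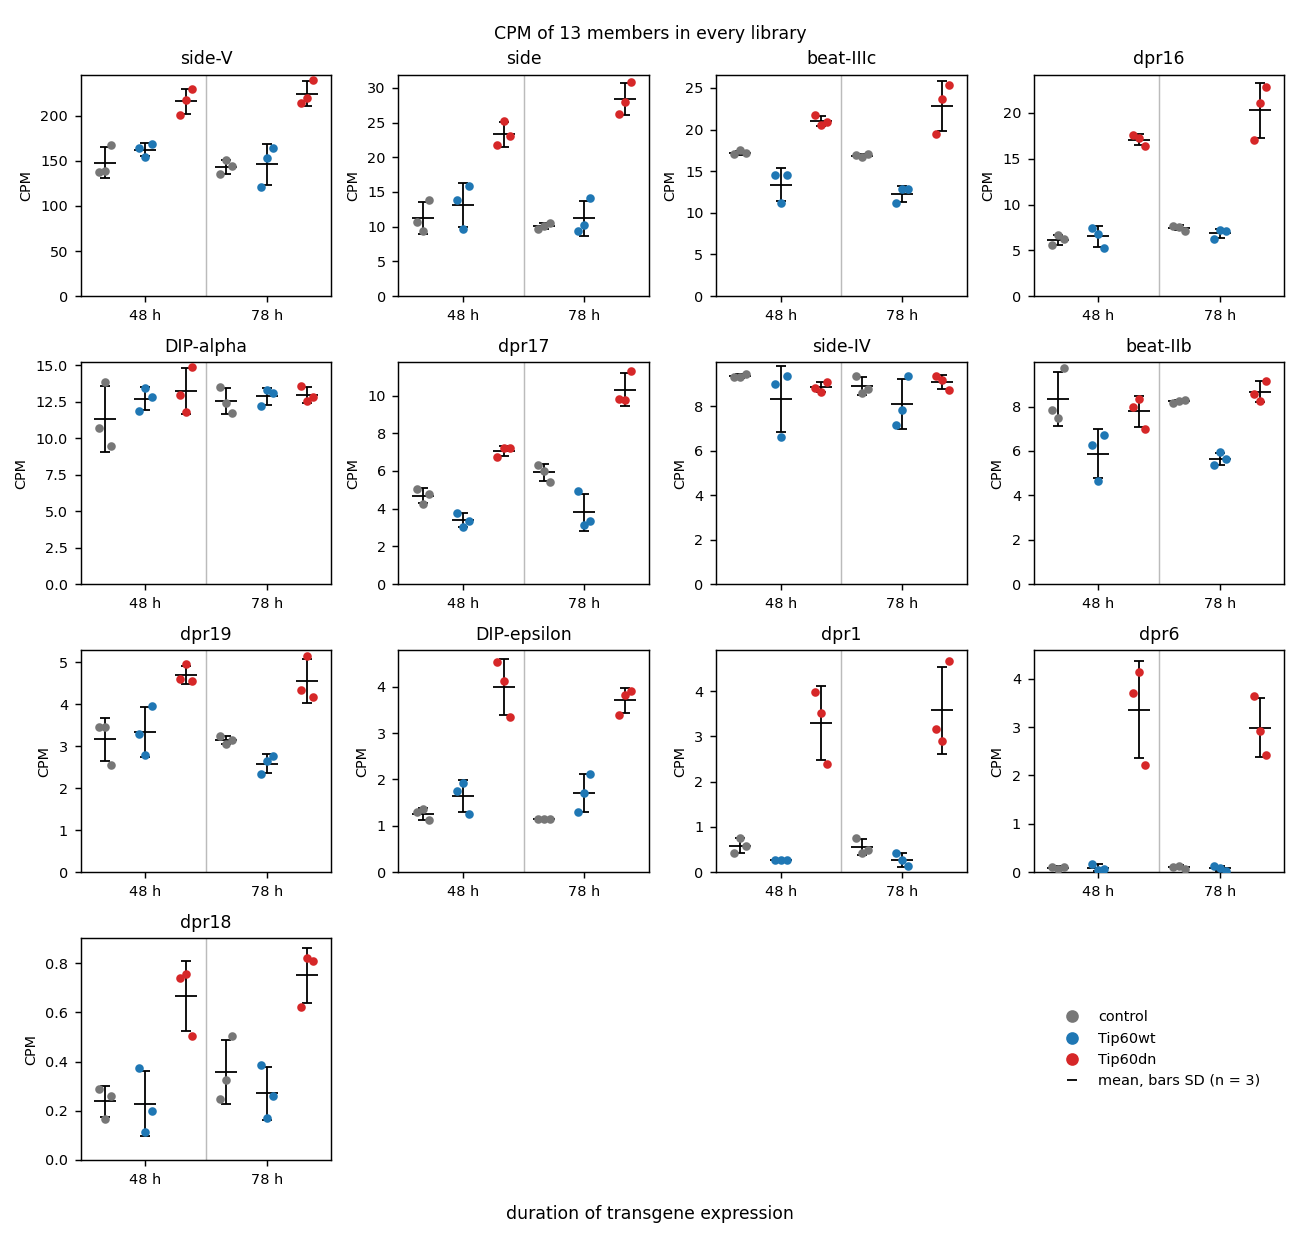
CPM of the 13 members that the naming rule selects, in every library (points), with the group mean and SD (black, n = 3), on linear axes that start at 0 and differ between panels. In the panels of DIP-alpha, side-IV and beat-IIb the Tip60dn libraries overlap other groups, and in the other panels they stand above the control and Tip60wt libraries at both durations.

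Among the DIP receptors the most abundant one was not called. DIP-alpha, the receptor of Dpr6 and Dpr10, lies at chrX:3507245-3571649 on the minus strand (FBgn0052791). At 48 h it read 10.7, 13.8 and 9.47 CPM in the control, 11.9, 13.4 and 12.8 CPM with Tip60wt and 12.9, 11.8 and 14.9 CPM with Tip60dn. At 78 h it read 13.5, 12.4 and 11.7 CPM in the control, 12.2, 13.3 and 13.1 CPM with Tip60wt and 13.6, 12.6 and 12.8 CPM with Tip60dn, with overlap between all groups. The log2 difference of Tip60dn from the control was 0.23 ± 0.14 (SE, edgeR adjusted p = 0.226) at 48 h and 0.053 ± 0.069 (adjusted p = 0.563) at 78 h. Without control library 2, the highest of its group, the 48 h difference was 0.39 and was called (adjusted p = 0.03). ppk8, on the opposite strand inside the span of DIP-alpha and sharing 1.18% of its exon bases, rose from 0.120 to 0.95 CPM at 48 h (log2 fold change 2.97, adjusted p = 0.0019) and from 0.119 to 0.898 CPM at 78 h (2.90, adjusted p = 0.000133).

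DIP-epsilon (FBgn0259714, chr2L:6377771-6411326, minus strand) was the receptor that rose in every comparison. Its libraries read 1.29, 1.37 and 1.12 CPM in the control, 1.75, 1.91 and 1.25 CPM with Tip60wt and 4.54, 4.12 and 3.35 CPM with Tip60dn at 48 h. The 78 h libraries read 1.14, 1.14 and 1.14 CPM in the control, 1.3, 1.70 and 2.12 CPM with Tip60wt and 3.40, 3.82 and 3.90 CPM with Tip60dn. Tip60dn libraries lay above all others at both durations. DIP-epsilon rose by 1.67 ± 0.20 (SE, edgeR adjusted p = 0.000316) against the control at 48 h and by 1.71 ± 0.19 (adjusted p = 0.000186) at 78 h, a 3.19-fold and 3.26-fold change.

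Further DIP genes, named after their values were seen, were called at 78 h at low levels. DIP-zeta went from 0.050 ± 0.00445 CPM (SD, n = 3) in the control to 0.393 ± 0.0474 CPM with Tip60dn, a log2 fold change of 2.95 ± 0.54 (edgeR adjusted p = 0.00221), and all Tip60dn libraries lay above the others. DIP-beta went from 0.183 ± 0.0394 to 0.425 ± 0.141 CPM (1.22 ± 0.39, adjusted p = 0.0304), also without overlap. DIP-lambda had 4, 2 and 2 counts in the control libraries, 0, 1 and 0 with Tip60wt and 15, 9 and 16 with Tip60dn. Against the control its scaled ratio was 5.07 with a counting interval of 2.34 to 12.5, and against Tip60wt, with 1 count in all, 40.0 with an interval of 6.78 to 1620. The calls of DIP-beta and DIP-lambda against the control were lost without single libraries: for DIP-beta any control library or Tip60dn library 1 or 3 (adjusted p 0.0574 to 0.139), and for DIP-lambda any control library or Tip60dn library 3 (0.0543 to 0.0902). DIP-zeta and DIP-lambda passed the filter at 78 h only through the Tip60dn libraries.

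Of the Beat receptors, beat-IIIc and beat-IIb carried most of the counts. beat-IIIc (FBgn0032629, chr2L:17187637-17260734, minus strand) read 17.0, 17.5 and 17.1 CPM in the control libraries, 14.5, 11.1 and 14.5 CPM with Tip60wt and 21.8, 20.6 and 20.9 CPM with Tip60dn at 48 h. At 78 h it read 16.9, 16.7 and 17.0 CPM in the control, 11.2, 12.9 and 12.8 CPM with Tip60wt and 19.5, 23.6 and 25.4 CPM with Tip60dn. The 3 groups did not overlap at either duration, with Tip60dn highest and Tip60wt lowest. Against the control beat-IIIc rose by 0.29 ± 0.093 (SE, edgeR adjusted p = 0.0317) at 48 h and 0.44 ± 0.10 (adjusted p = 0.00514) at 78 h, and against Tip60wt by 0.66 ± 0.094 (adjusted p = 0.000856) and 0.89 ± 0.10 (adjusted p = 0.000201). The 48 h call against the control was lost when any of the 6 libraries was left out, at adjusted p values of 0.062 to 0.0932.

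beat-IIb (FBgn0038494, chr3R:17232253-17265049, minus strand) and beat-IIa, both known to bind Side-IV, did not differ between Tip60dn and control by the test. beat-IIb read 7.84, 7.48 and 9.73 CPM in the control, 6.28, 4.62 and 6.71 CPM with Tip60wt and 8.0, 8.36 and 7.01 CPM with Tip60dn at 48 h. At 78 h beat-IIb read 8.16, 8.27 and 8.29 CPM in the control, 5.38, 5.93 and 5.62 CPM with Tip60wt and 8.58, 8.25 and 9.17 CPM with Tip60dn. Control and Tip60dn libraries overlapped at both durations, and the Tip60wt libraries lay below both. Tip60dn differed from the control by -0.10 ± 0.15 (SE, edgeR adjusted p = 0.663) at 48 h and 0.079 ± 0.074 (adjusted p = 0.419) at 78 h, and from Tip60wt by 0.62 ± 0.074 (adjusted p = 0.000348) at 78 h. beat-IIa, named after its values were seen, had means of 0.663 ± 0.177 CPM in the control, 0.175 ± 0.0848 CPM with Tip60wt and 0.420 ± 0.0889 CPM with Tip60dn at 78 h. It was called higher with Tip60dn than with Tip60wt (1.25 ± 0.43, adjusted p = 0.0472) and not called against the control (-0.66 ± 0.41, adjusted p = 0.223). The call against Tip60wt was lost without Tip60wt library 2 or 3 or Tip60dn library 2 or 3, at adjusted p values of 0.0737 to 0.13.

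In the side family, side-V and side rose and side-IV was not called. side-V (FBgn0085400, chr2R:23163012-23203973, minus strand) read 138, 139 and 168 CPM in the control, 164, 154 and 169 CPM with Tip60wt and 201, 218 and 229 CPM with Tip60dn at 48 h. At 78 h side-V read 135, 150.5 and 144 CPM in the control, 121, 153 and 164 CPM with Tip60wt and 214, 220.2 and 239.8 CPM with Tip60dn. Every Tip60dn library lay above every other library. The rise was modest in fold, 1.46 at 48 h (log2 0.55 ± 0.080, SE, edgeR adjusted p = 0.000794) and 1.57 at 78 h (0.65 ± 0.10, adjusted p = 0.000943), and the largest of any member in CPM.

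side, the attractant on muscles and along the paths of motor axons that carry Beat-Ia, lies at chr3R:27375088-27437482 on the minus strand (FBgn0016061). Its libraries read 10.7, 9.38 and 13.8 CPM in the control, 13.9, 9.69 and 15.9 CPM with Tip60wt and 21.7, 25.2 and 23.0 CPM with Tip60dn at 48 h. The 78 h libraries read 9.63, 10.1 and 10.5 CPM in the control, 9.40, 10.2 and 14.1 CPM with Tip60wt and 26.2, 28.0 and 30.8 CPM with Tip60dn. Tip60dn libraries were above all others, and control and Tip60wt libraries overlapped. Against the control side rose by 1.05 ± 0.18 (SE, edgeR adjusted p = 0.00205) at 48 h and by 1.5 ± 0.14 (adjusted p = 7.17e-05) at 78 h.

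side-IV (FBgn0038156, chr3R:13450590-13464184, plus strand) read 9.32, 9.34 and 9.47 CPM in the control, 9.02, 6.62 and 9.35 CPM with Tip60wt and 8.85, 8.67 and 9.12 CPM with Tip60dn at 48 h. At 78 h side-IV read 9.38, 8.62 and 8.80 CPM in the control, 7.15, 7.82 and 9.36 CPM with Tip60wt and 9.36, 9.20 and 8.75 CPM with Tip60dn. Tip60dn and control libraries overlapped at 78 h, and at 48 h the Tip60dn libraries lay just below the control libraries. The differences were -0.075 ± 0.12 (SE, edgeR adjusted p = 0.653) and 0.034 ± 0.10 (adjusted p = 0.81). On the opposite strand asRNA:CR46354 shares 50.01% of its exon bases and was not analysed here, and asRNA:CR17025 shares 17.47% and stayed at or below 0.131 CPM in the control and Tip60dn groups. side-II, named after its values were seen, had 4, 3 and 0 counts in the 78 h control libraries, 6, 1 and 0 with Tip60wt and 54, 30 and 41 with Tip60dn. It was called at 78 h against the control (4.13 ± 0.89, adjusted p = 0.00518) and against Tip60wt (4.08 ± 0.89, adjusted p = 0.00668), and passed the filter there only through the Tip60dn libraries. At 48 h, with 26, 23 and 6 counts in the Tip60dn libraries against 2, 4 and 2 in the control, it did not pass the filter.

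The known partners of DIP-alpha, side, side-IV and side-II are set side by side here, and no difference between partners was tested. Levels are given per kb of exon, as means and SD of 3 libraries, so that partners can be set side by side. DIP-alpha stood at 1.26 ± 0.251 CPM per kb in control and 1.47 ± 0.174 in Tip60dn discs at 48 h, while its ligand dpr6 went from 0.0143 ± 0.00514 to 0.533 ± 0.160 CPM per kb. At 78 h DIP-alpha stood at 1.40 ± 0.102 and 1.45 ± 0.0609, and dpr6 went from 0.0153 ± 0.00611 to 0.474 ± 0.0969 CPM per kb. The other ligand of DIP-alpha, dpr10, which guides motor branches when muscles carry it, stayed low at 0.0236 ± 0.0180 and 0.0350 ± 0.0160 CPM per kb at 48 h and was not called against the control (log2 0.55 ± 1.02, edgeR adjusted p = 0.708). Of these 2 neighbouring genes for ligands of 1 receptor, dpr6 was called against the control and dpr10 was not. Against Tip60wt dpr10 was called at 78 h, where it too passed the filter only through the Tip60dn libraries.

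For side the partner was nearly without counts. beat-Ia had 2 counts in 48 h control discs, 2 with Tip60wt and 0 with Tip60dn, and at 78 h 0, 0 and 7 counts, all 7 in 1 library. At 48 h side went from 0.963 ± 0.196 to 1.99 ± 0.153 CPM per kb in the same discs. side-IV and beat-IIb, by contrast, were both transcribed, at 1.83 ± 0.0158 and 3.40 ± 0.492 CPM per kb in 48 h control discs, and neither was called against the control. side-II and beat-VI are partners that were both called at 78 h, where both entered the test only through their Tip60dn counts. side-II went from 0.00479 ± 0.00434 to 0.0908 ± 0.0104 CPM per kb and beat-VI from 0.00703 ± 0.00740 to 0.0565 ± 0.0189, the latter with a log2 fold change of 2.86 ± 0.94 (edgeR adjusted p = 0.033). The beat-VI call was lost without control library 1 or 3 or Tip60dn library 2 or 3, at adjusted p values of 0.0816 to 0.119. DIP-delta and its mushroom body partner dpr12 had at most 0.306 and 0.209 CPM, in Tip60dn discs at 78 h, and were not called.

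**Figure D4:**
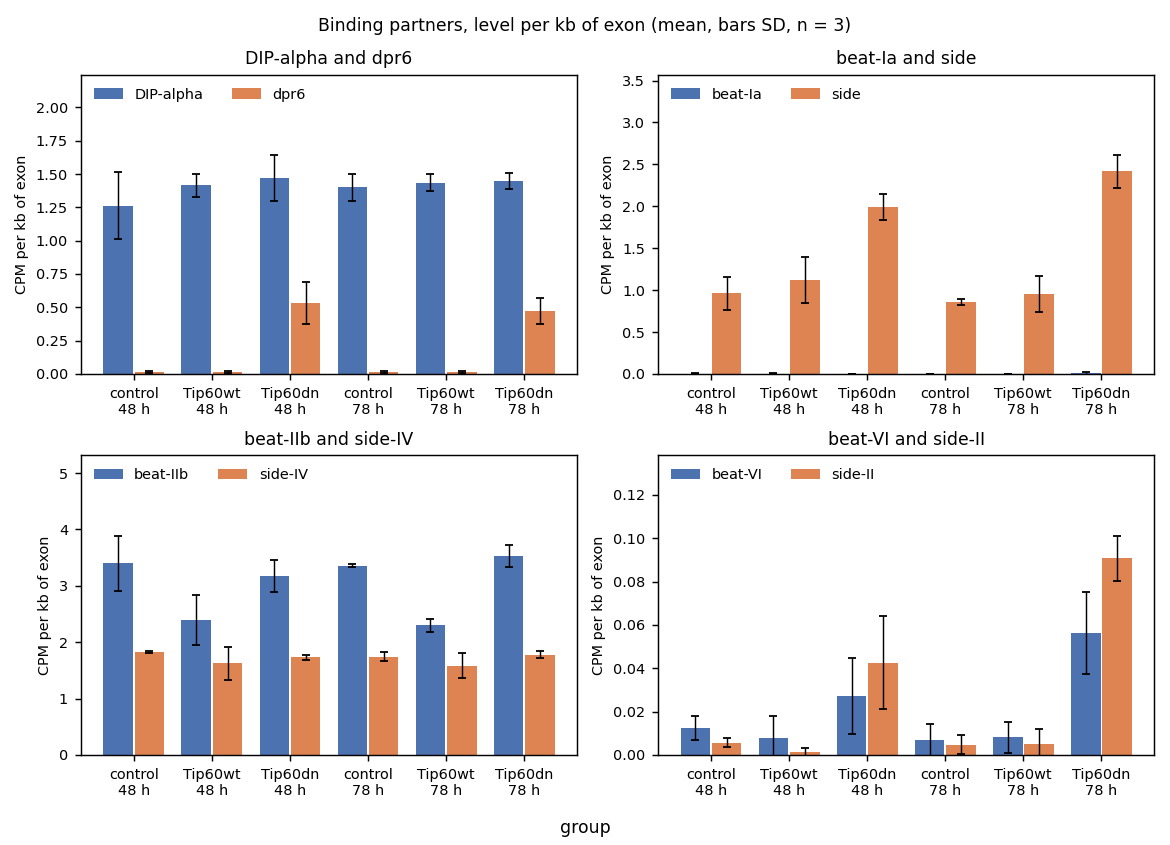
Level per kb of exon (mean, bars SD, n = 3) of 4 receptor and partner pairs in the 6 groups, on linear axes that start at 0. dpr6 and side rise in the Tip60dn groups beside a DIP-alpha that was not called and a beat-Ia at or near 0, beat-IIb dips in the Tip60wt groups, and beat-VI and side-II are both highest in the 78 h Tip60dn group.

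Wild type Tip60 gave few calls among the members. At 48 h 1 member, DIP-gamma, was called against the control, where 1.73% of all genes tested were called higher and 1.84% lower. DIP-gamma, known as a receptor of Dpr11, had 2, 2 and 2 counts in the control libraries and 12, 12 and 10 with Tip60wt, a log2 fold change of 2.44 ± 0.56 (SE, edgeR adjusted p = 0.049). The call was lost in 10 of 11 alternative settings, including each left-out library, with adjusted p values of 0.0498 to 0.197 over the 11, and DESeq2 instead called 4 members lower: beat-IIIc, beat-IIb, dpr1 and dpr17. At 78 h 4 members were lower with Tip60wt, beside 1.97% of all genes tested that were lower and 2.09% that were higher, and the count of higher members was 0 by edgeR, 1 at an unadjusted p under 0.05 and 0 by DESeq2.

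Those 4 members were beat-IIb, beat-IIIc, beat-IIa and dpr10. beat-IIb fell by 0.54 on the log2 scale (edgeR adjusted p = 0.00354), beat-IIIc by 0.45 (adjusted p = 0.0328) and beat-IIa by 1.90 (adjusted p = 0.0429). In each of these genes every Tip60wt library lay below every control library. dpr10 had 14, 6 and 4 counts in the control libraries, 0 in the 3 Tip60wt libraries and 10, 11 and 14 with Tip60dn. It passed the filter only through the Tip60dn libraries, which are not part of this comparison. The dpr10 call was lost with the replicate block (edgeR adjusted p = 0.0845). Leaving out any control library or Tip60wt library 2 or 3 also ended it (0.0717 to 0.151). Against a floor of 3 counts over the group, dpr10 was at least 7.89-fold lower with Tip60wt than in the control, and with Tip60dn at least 11.7-fold higher than with Tip60wt. When single libraries were left out the number of members called ranged from 1 to 6. It was 1 without control library 1, 2 or 3 or Tip60wt library 2 or 3. Without Tip60wt library 1 it was 6, among them DIP-epsilon, which was higher with Tip60wt (log2 0.75, edgeR adjusted p = 0.0255). dpr17 also read lower with Tip60wt than in the control. Its log2 differences were -0.47 ± 0.12 (edgeR adjusted p = 0.0618) at 48 h and -0.64 ± 0.17 (adjusted p = 0.0699) at 78 h, which missed the threshold. DESeq2 called dpr17 lower at both durations (adjusted p 0.0112 and 0.00511). At 78 h edgeR also called it without Tip60wt library 1 (-0.87, adjusted p = 0.00293).

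No member passed the threshold of edgeR's test between durations. The Tip60dn effect at 78 h less that at 48 h was called for 0 of 32 members tested, against the control and against Tip60wt, by edgeR and by DESeq2, with 0 and 1 members at an unadjusted p under 0.05, and 0 of 11173 genes were called in each. Between 78 h and 48 h discs of the same arm, edgeR called 0 members in the control (3 at an unadjusted p under 0.05), 0 with Tip60wt (2) and 0 with Tip60dn (1), beside 0% of all genes in the control and with Tip60wt, and 0.0537% higher and 0.0806% lower with Tip60dn. DESeq2 called 0, 0 and 1, the last being dpr17, higher at 78 h in Tip60dn discs by 0.55 (adjusted p = 0.0262; 0.55 ± 0.14, adjusted p = 0.225 by edgeR). For side the difference of effects was 0.45 ± 0.25 (adjusted p = 0.744), for DIP-zeta 1.53 ± 0.98 (adjusted p = 0.798) and for dpr6 -0.30 ± 0.68 (adjusted p = 0.968). The larger number of members called at 78 h than at 48 h is therefore no tested difference, and duration cannot be told apart from any difference in how the 2 tables were made.

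The members that were never called higher with Tip60dn were mostly too low to test. Of the 54, 20 stayed below 0.1 CPM in every group: DIP-eta, DIP-kappa, DIP-theta, 9 beat genes (beat-Ia, beat-Ib, beat-Ic, beat-IIIa, beat-IV, beat-Va, beat-Vb, beat-Vc, beat-VII) and dpr2, dpr4, dpr5, dpr7, dpr8, dpr11, dpr13 and dpr15. Members that were tested and not called against the control included side-III (1.14 ± 0.43, edgeR adjusted p = 0.0572 at 78 h), side-VII (0.63 ± 0.31, adjusted p = 0.14 at 48 h), side-VIII (2.76 ± 1.09, adjusted p = 0.0668), dpr14 (0.69 ± 0.47, adjusted p = 0.277) and dpr21 (1.78 ± 0.66, adjusted p = 0.0539). Some high group means came from 1 library. dpr20 had 4, 60 and 0 counts in the 48 h Tip60dn libraries, beat-IIIb 54, 9 and 2 in those of 78 h, and dpr2 20, 2 and 0 in the 48 h Tip60wt libraries. dpr9 went the other way, with 5, 6 and 10 counts in the 78 h control libraries and 0 in the 3 Tip60dn libraries, at least 6.90-fold lower against a floor of 3 counts, but with 8, 12 and 6 counts in the Tip60dn libraries of 48 h.

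Other genes for neuronal wiring, a list of 72 receptors, ligands and adhesion proteins outside the 4 families, were called higher more often than lower. Against the control at 48 h, 25 of 68 tested were higher and 7 lower, beside 19.6% and 19.4% of all genes. At 78 h, 38 of 66 were higher and 4 lower, beside 22.4% and 21.7%. Median log2 fold changes of the list were 0.18 and 0.24. Dscam4, an immunoglobulin receptor of the Dscam family, stood at 0.486 ± 0.0142 CPM (SD, n = 3) in the control, 69.8 ± 6.45 CPM with Tip60wt and 96.5 ± 4.32 CPM with Tip60dn at 48 h. It was thus high with both transgenes, and the log2 difference of Tip60dn from Tip60wt was 0.47 (edgeR adjusted p = 0.000685) at 48 h and 0.42 (adjusted p = 0.0503, not called) at 78 h. At 48 h the teneurins Ten-a and Ten-m, which match synaptic partners, rose against the control by 0.46 (adjusted p = 0.00282) and 0.48 (adjusted p = 0.00272), and the guidance cue sli by 0.42 (adjusted p = 0.00271). The 7 genes called lower at 48 h included robo1 (log2 -0.356, edgeR adjusted p = 0.00122) and Ptp99A (-0.199, adjusted p = 0.00585). Most genes of this list were well transcribed in control discs, with 7 of 72 below 0.1 CPM.

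Neuronal markers were called in both directions against the control, though elav alone was called lower. Of 25 pan-neuronal genes tested at 48 h, 10 were higher and 1 lower with Tip60dn, beside 19.6% and 19.4% of all genes. At 78 h 13 of 24 were higher and 1 lower, beside 22.4% and 21.7%. Snap25 and nSyb, parts of the vesicle fusion machinery, went from 1.40 ± 0.434 to 12.4 ± 0.430 CPM (SD, n = 3; edgeR adjusted p = 1.24e-05) and from 0.563 ± 0.121 to 1.80 ± 0.291 CPM (adjusted p = 0.000748) at 48 h. The gene that fell was elav, the standard marker of neurons, from 67.2 ± 1.38 to 31.4 ± 1.33 CPM (log2 -1.09, adjusted p = 2.05e-06). The active zone gene brp stood at 0.376 ± 0.0443 and 0.425 ± 0.121 CPM and was not called (adjusted p = 0.672). The summed level of the 29 genes was 700.2 to 754 CPM in control, 850.0 to 883 in Tip60wt and 1415 to 1704 in Tip60dn libraries at 48 h, and 658 to 689, 831 to 871 and 1558 to 1629 CPM at 78 h. Most of that was unc-13, with 465 and 1230.0 CPM, and without it the 48 h sums were 242 to 272 CPM in control and 273 to 306 CPM in Tip60dn libraries. Markers of this list at 0 were Vmat in the 78 h control and Rdl in the 78 h Tip60wt group, and none in the other 4 groups.

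Markers of other cells of the disc are given beside the shares of all genes called against the control. These were 19.6% higher and 19.4% lower at 48 h, and 22.4% and 21.7% at 78 h. The share called higher lay near these for sensory organ precursors and well above them for hemocytes and trachea at both durations. For myoblasts and muscle it lay near at 48 h and above at 78 h. Of 11 glial genes tested, 0 were higher and 2 lower at 48 h, and the glial master gene repo stood at 0.169 ± 0.0948 and 0.175 ± 0.120 CPM. The summed glial level was 1222 to 1376 CPM in control and 766 to 831 CPM in Tip60dn libraries. Most of that was bnb, with means of 909 and 506 CPM, and nrv2, with 257 and 178 CPM, the genes called lower. Of 14 hemocyte (blood cell) genes, 10 were higher and 1 lower at 48 h, with Hml going from 53.7 ± 5.75 to 173 ± 33.0 CPM and sums of 2330.0 to 2942 and 3246 to 3531 CPM. Ppn, at 947 and 1070 CPM and not called, and Ance, at 853 and 1170 CPM, supplied most of the hemocyte sums. Among 12 sensory organ precursor genes 3 were higher and 0 lower, with sums of 217 to 257 and 250.0 to 268 CPM. Among 23 myoblast and muscle genes 6 were higher and 1 lower, with sums of 2273 to 2335 and 2301 to 2505 CPM. Among 8 tracheal genes 5 were higher and 0 lower, with sums of 1780.0 to 2072 and 2246 to 2393 CPM. At 78 h the higher and lower counts were 0 and 3 for glia, 8 and 1 for hemocytes, 3 and 0 for sensory organ precursors, 11 and 1 for myoblasts and muscle, and 6 and 0 for trachea. Of these lists NimC4 (hemocyte) was at 0 in the 48 h Tip60wt group and gcm2 (glia) in the 78 h Tip60wt group. The part of any of these cells in the changes of the members was not tested, and in whole discs more cells of a type and more RNA per cell cannot be told apart.

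**Figure D5:**
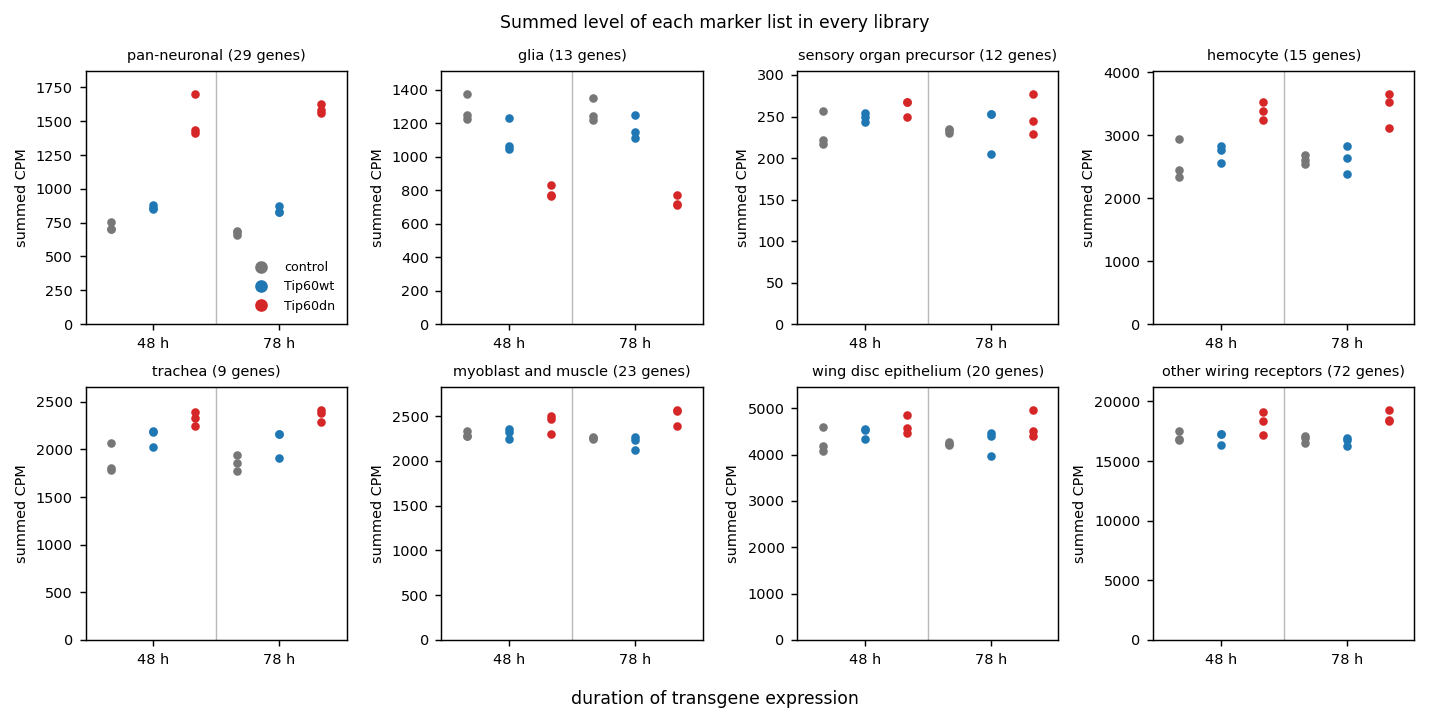
Summed CPM of 8 gene lists in every library (points), by group, on axes that start at 0. Pan-neuronal sums stand apart in the Tip60dn libraries mainly through unc-13, and hemocyte and tracheal sums lie above. Glial sums lie below, mainly through bnb and nrv2, and precursor sums of Tip60dn and control libraries overlap.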

How the data were processed

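Per the labels, libraries were directional and made from poly(A) RNA of 40 pooled discs. The authors deposited unnormalized read counts per FlyBase gene, with 48 h and 78 h libraries in separate tables. The submitters' processing notes name FastQC and featureCounts, the BDGP6 build, edgeR 3.13.4 and limma. Aligner, strand setting, annotation release and treatment of multimapping reads were not given in the sources used here. Of the deposited counts between 1 and 20, 65.9% at 48 h and 65.4% at 78 h were even. Counting intervals take each count as independent, and are too narrow if mates of a fragment were counted separately.

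Symbols were matched for 17253 of 17559 identifiers with the Ensembl annotation of BDGP6. Tests used edgeR 4.0.16 in R 4.3.3: filterByExpr with a minimum of 10 counts, TMM scaling, and a two-sided quasi-likelihood fit of the 9 libraries of a duration with group as the only term. Contrasts across durations used 1 fit of all 18 libraries, whose TMM factors also scale the CPM values. An SE is the log2 fold change divided by the square root of F. DESeq2 1.42.0, RLE scaling, no filter, a replicate block, only the 6 libraries compared, and each library left out were the alternatives. In data simulated for Tip60dn against control at 48 h (10693 genes), 7, 34, 50 and 50 of 50 genes changed 1.5-, 2-, 4- and 8-fold were recovered, with 8 false calls among 10493.

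Members and lists were chosen with earlier results of these data known. Values in every library are printed for members that averaged 1 CPM or more in any group, or that were called with Tip60dn and averaged 0.5 CPM or more in the higher group, which gave 13 members. Of 214 entries in 8 gene lists, 193 were in the tables.

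The labels number replicates 1 to 3 in each group and do not say that a number marks a shared day or batch. Residuals of same-numbered Tip60dn and Tip60wt libraries at 78 h correlated at 0.29, 0.35 and 0.32, so the numbers were read as pairs there. In every other pair of groups at least 1 of the 3 correlations was below 0.1, and the numbers were not read as pairs. Between control and either transgene at 48 h, each library still correlated best with its same-numbered partner, at 0.033 to 0.221. With the replicate block the 48 h call of dpr3 against the control was lost (edgeR adjusted p = 0.0652).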

Additional observations from a re-analysis of the deposited data

How the results depend on the processing

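Without the low-count filter, DIP-beta, DIP-lambda, beat-VI, dpr18 and dpr3 lost their calls against the control at 78 h (edgeR adjusted p 0.0551 to 0.0776). The counts of members called with Tip60dn kept within 1.5 times of their values under RLE scaling, no filter, DESeq2 and fits of only the 6 libraries, a range that allows such losses. With the replicate block they were 10 and 14 against the control (11 and 16 without it, at 48 h and 78 h) and 10 and 18 against Tip60wt (11 and 19); where the numbers were read as pairs, Tip60dn and Tip60wt at 78 h, the block ended 1 call, that of beat-VI (adjusted p = 0.0693). Leaving out 1 library gave 7 to 10 and 11 to 14 members against the control, and 9 to 11 and 14 to 20 against Tip60wt. In all 11 alternatives 7 of the 11 and 11 of the 16 calls against the control held, and 8 of the 11 and 12 of the 19 against Tip60wt, dpr6, dpr1, dpr16, dpr17, DIP-epsilon, side and side-V in each. Tip60wt against control depended on the settings: at 48 h the 1 call became 0 without the filter, with the replicate block and with only the 6 libraries, 4 (all lower) with DESeq2, and 0 to 0 with 1 library left out; at 78 h the 4 calls became 2 with the block and 2 with only the 6 libraries, and 1 to 6 with 1 library left out. The cause was not tested. The contrasts between durations gave 0 members in every setting run, with 0 to 0 when a library was left out, except 1 (dpr17) between 78 h and 48 h Tip60dn discs with DESeq2. Among the results for single members that the naming rule selects, 39 alternatives lost a call, 11 gained one, 1612 changed no call and none reversed a direction. In all, 22 members were never tested because their counts were below the filter. In simulated data over genes of all levels, which differ from the real counts in spread and share of changed genes, 7 of 50 changes of 1.5-fold were recovered.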
